A study of Mus musculus with 18 samples.

Results

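The stress-activated arm of the mitogen-activated protein (MAP) kinase system was followed through 10 genes in J774 cells, a mouse macrophage line. They were taken as a named list of 5 kinases (Map2k3, Map2k4, Map2k6, Mapk14 and Mapk8) and 5 phosphatases (Dusp1, Dusp2, Dusp4, Dusp5 and Dusp16). All 10 were measured among 23102 genes. The list was chosen with earlier results of these data known, so counts within it, set beside shares of all genes, are a description. In total RNA on 18 arrays, 6 groups of 3 were compared: vehicle, estradiol, talc, talc plus estradiol, titanium dioxide (TiO2), and TiO2 plus estradiol. Talc or TiO2 was given at 10 µg per well and estradiol at 2 µg/mL for 24 h, in medium free of phenol red that all groups shared. No source used here says whether the 3 arrays of a group are separate cultures, so the p-values rest on the spread among arrays, which may be technical only.

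p38 and JNK are MAP kinases that stress and inflammatory signals switch on by phosphorylation. The upstream kinases MKK3 and MKK6, encoded by Map2k3 and Map2k6, activate p38, whose main form in macrophages is encoded by Mapk14. MKK4, encoded by Map2k4, activates JNK, of which Mapk8 encodes one form, and can also act on p38. Dual-specificity phosphatases, or DUSPs, remove the activating phosphates, and many DUSP genes are themselves induced when MAP kinases are active, which forms a feedback loop. RNA levels do not show kinase or phosphatase activity.

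The cells carried the markers that their label calls for. All 9 macrophage markers examined lay above the median level of all genes, with a mean log2 intensity of the list between 10.16 and 10.39 on the 18 arrays. The lists for other cell types stood far lower, between 3.42 and 4.68, and 0 of 6 lymphocyte and 0 of 5 granulocyte markers exceeded that median, while 2 of 5 fibroblast and 2 of 5 epithelial markers did. On the mean of the macrophage list the talc arrays (10.16 to 10.28) lay below the vehicle arrays (10.35 to 10.39). The markers did not move as 1. Adgre1 (-0.79) and Itgam (-0.57) were lower in log2 level (limma adjusted p = 0.0052 and 0.0016). Without passing, Csf1r, Lyz2, Fcgr1 and Ptprc were lower, and Cd14 (0.27), Cd68 (0.15) and Spi1 (0.15) were higher. The part of these marker differences in the results was not tested. Array medians were close, between 45.58 and 48.02 intensity units, and the upper quartiles were lowest in TiO2 plus estradiol (222.2 to 233.5, against 237.9 to 249.1 elsewhere). In bulk RNA, fewer cells expressing a gene and less RNA per cell cannot be told apart.

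Against vehicle, 4 of the 5 phosphatases rose (Dusp1, Dusp4, Dusp5 and Dusp16), 0 kinases rose, and 2 of the 5 kinases fell (Map2k6 and Mapk14), each in limma, with Benjamini-Hochberg adjustment across the 23102 genes and a threshold of 0.05. Of all genes, 8.46% passed in that comparison, 3.94% higher and 4.52% lower. With estradiol present in both groups, the same 4 phosphatases rose and Map2k6 fell, where 7.13% of all genes passed, 4.13% higher and 3% lower. The median log2 change of the 10 genes was 0.10 without and 0.19 with estradiol, beside 0.02 and 0 for all genes. With TiO2 none of the 10 passed in either setting.

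**Figure D1:**
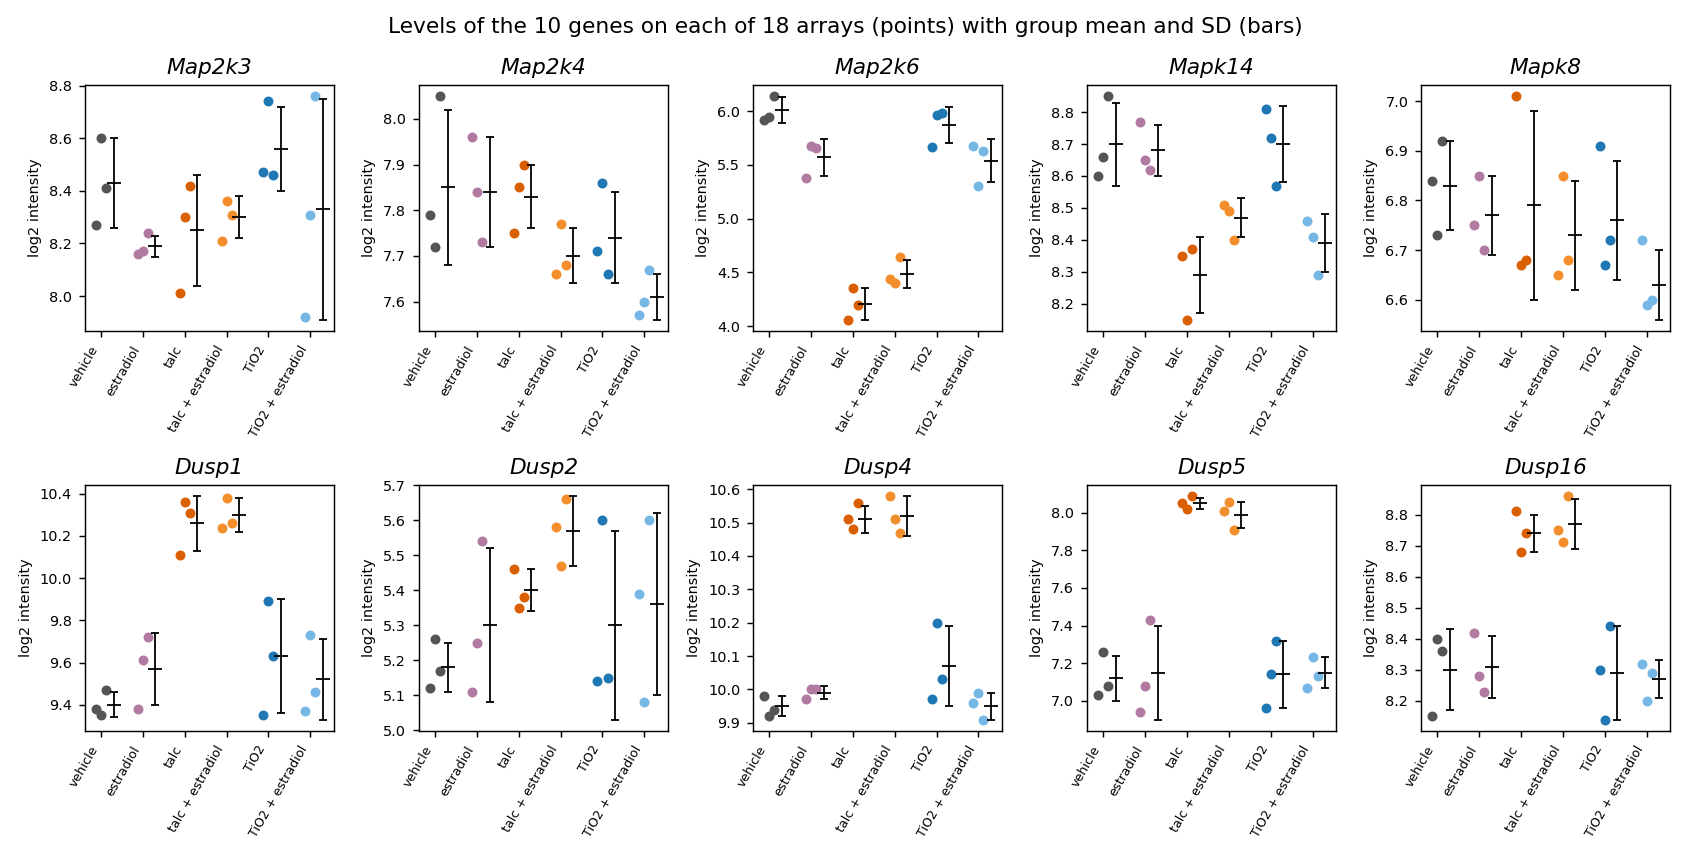
Log2 intensity of the 10 genes on each array, in 10 panels with their own vertical scales, by treatment group; points are arrays, horizontal marks are group means and bars are SD (n = 3). The 6 talc arrays of Dusp1, Dusp4, Dusp5 and Dusp16 lie above the other 12, and the 6 talc arrays of Map2k6 lie below them.

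Map2k6, which encodes a kinase that activates p38, fell furthest of the 10 genes with talc. Its log2 levels were 5.92, 5.95 and 6.14 on the vehicle arrays and 4.20, 4.06 and 4.36 on the talc arrays. The groups lay far apart, with mean intensities of 64.3 and 18.5 units. The log2 change was -1.80 ± 0.13 (SE, limma adjusted p = 8.8e-07), a 3.48-fold fall. Both talc group means (4.21, and 4.49 with estradiol) lay below the median level of all genes, 4.73, so how much of the talc level is background was not measured and the fold is uncertain; the brightest of the gene's probe sets gave -0.96. With estradiol in both groups the levels were 5.38, 5.66 and 5.68 without talc and 4.40, 4.44 and 4.64 with it. Again no array overlapped, and the change was -1.08 ± 0.13 (adjusted p = 0.00011), a 2.12-fold fall. The share of all genes without overlap was not computed, so non-overlap here and below is a description.

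The order of the Map2k6 group means, from low to high, was talc (4.21 ± 0.15), talc plus estradiol (4.49 ± 0.13), TiO2 plus estradiol (5.54 ± 0.20), estradiol (5.57 ± 0.17), TiO2 (5.87 ± 0.17) and vehicle (6.01 ± 0.12; SD, n = 3). Both talc groups were thus the lowest, and their arrays did not overlap (at most 4.36 with talc, at least 4.40 with talc plus estradiol), while among the other 4 the arrays of each neighbouring pair overlapped. Estradiol alone gave a difference of -0.43 ± 0.13 from vehicle, with all 3 arrays below the lowest vehicle array, but an adjusted p of 0.93 (unadjusted p = 0.0050 in limma). Added to talc, estradiol gave a difference of 0.29 ± 0.13 (adjusted p = 0.75). The talc effect was smaller with estradiol by 0.72 ± 0.19 log2 units, and this interaction did not pass (adjusted p = 0.64, unadjusted p = 0.0015 in limma). With the brightest of the gene's 13 probe sets read alone, the signs of both turned, to -0.58 for estradiol added to talc and -0.56 for the interaction.

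A gene value here is the mean of several probe sets along the gene, so the probe sets were also read singly. They make up the gene value on the same arrays, so their shared direction is not separate support for a call. In talc against vehicle all 13 probe sets of Map2k6 were lower, from -3.14 to -0.67 log2 units, and 8 passed on their own, where 1.8% of all probe sets did. With estradiol 11 of 13 were lower and 3 passed, where 0.972% of all probe sets did. The other 2, at 1.65 and 0.76, were the 2 dimmest of the gene and did not pass. The brightest probe set changed by -0.96 without and by -1.52 with estradiol, so the depth of the fall without estradiol depends on the probe sets used.

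**Figure D2:**
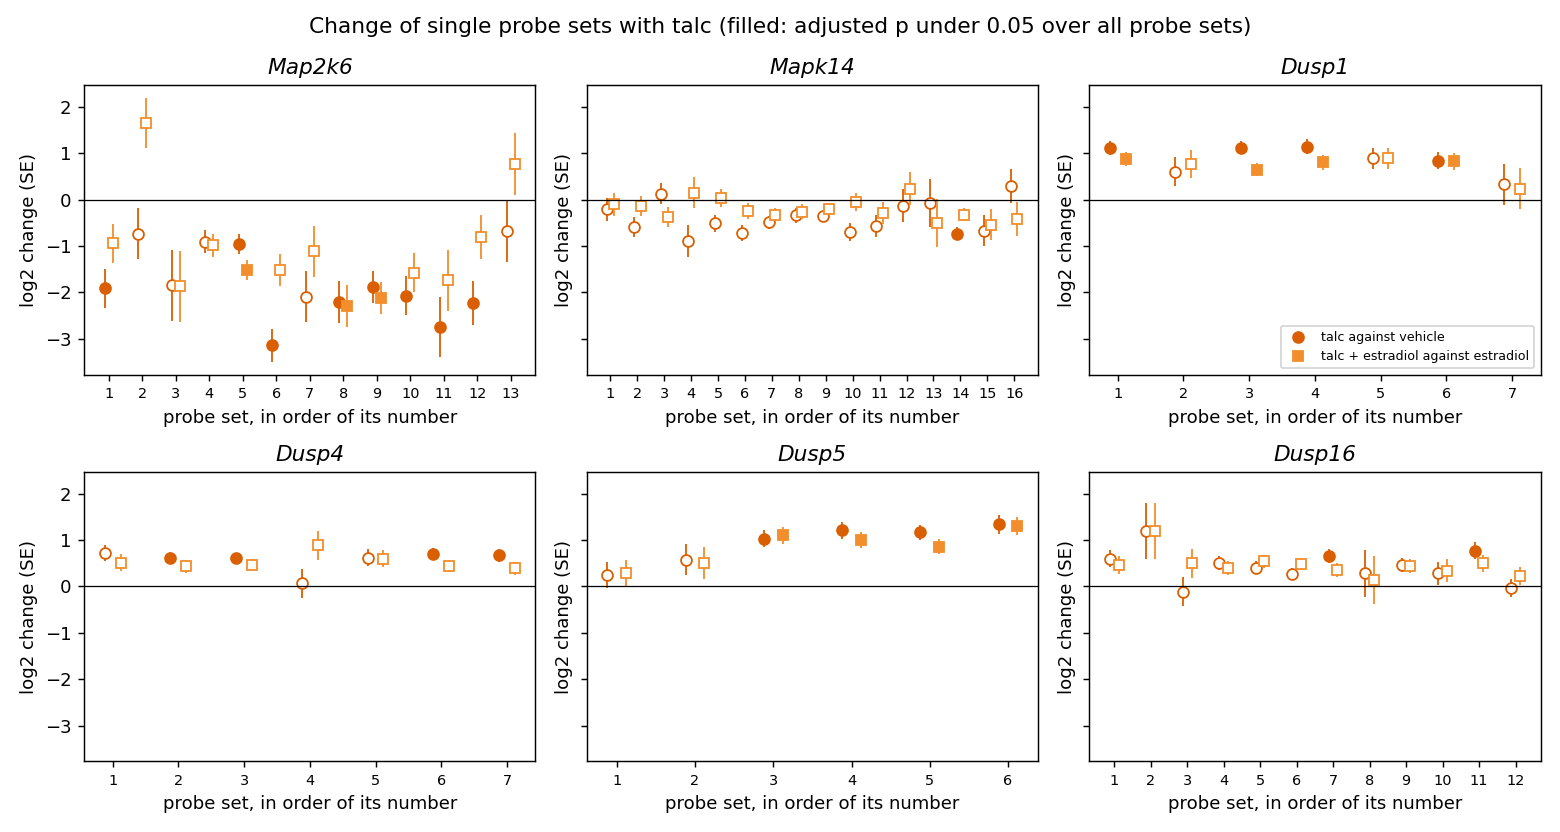
Log2 change of each probe set with talc, without estradiol (circles) and with it (squares), for the 6 genes that passed in at least one talc comparison; bars are SE and filled symbols passed over all probe sets. All 13 Map2k6 probe sets lie below 0 without estradiol, and all 7 Dusp1 and 6 Dusp5 probe sets lie above 0 in both comparisons.

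Mapk14, the p38 kinase itself, changed less. It stood at 8.60, 8.66 and 8.85 with vehicle and at 8.15, 8.35 and 8.37 with talc, a log2 change of -0.41 ± 0.10 (adjusted p = 0.019), or 1.33-fold lower. All 3 talc arrays were below the lowest vehicle array. The call was lost without talc replicate 2 (-0.34, adjusted p = 0.093) and without vehicle replicate 3 (-0.34, adjusted p = 0.099), with the brightest probe set (-0.51, adjusted p = 0.10) and in a fit of only the 6 arrays compared (adjusted p = 0.093). With estradiol in both groups the difference was -0.21 ± 0.10 (adjusted p = 0.29), and the test of the difference between these talc effects gave 0.20 ± 0.15 (adjusted p = 0.88). Mapk14 was also low in TiO2 plus estradiol, at 8.29, 8.41 and 8.46 against 8.62, 8.65 and 8.77 with estradiol alone. That difference, -0.29 ± 0.10, had an adjusted p of 0.44. It was -0.26 after subtraction of array medians and -0.24 after quantile normalization, in the group with the dimmest upper quartiles. Talc plus estradiol and TiO2 plus estradiol differed by 0.08 ± 0.10 in Mapk14 (95% interval -0.14 to 0.30).

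The other 3 kinases passed in none of the 11 comparisons. Map2k3, the partner of Map2k6 above p38, had group means between 8.19 and 8.56 and the widest scatter among the kinases, from 7.92 to 8.76 within TiO2 plus estradiol alone. Its talc differences were -0.18 ± 0.17 and 0.11 ± 0.17 without and with estradiol (adjusted p = 0.64 and 0.81). The 95% interval in talc against vehicle ran from -0.54 to 0.17, which leaves out a fall of the size seen in Map2k6. Map2k4 ranged from 7.57 to 8.05 over all arrays, with talc differences of -0.02 ± 0.10 and -0.14 ± 0.10 (adjusted p = 0.96 and 0.54). Mapk8 ranged from 6.59 to 7.01, and both of its talc differences were -0.04 ± 0.11 (adjusted p = 0.90 and 0.91).

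Dusp5 and Dusp1 rose by similar amounts without estradiol, and their order turned with the brightest probe set (1.03 for Dusp5 and 1.12 for Dusp1). DUSP5 is a nuclear phosphatase that acts on the MAP kinase ERK rather than on p38 or JNK. Its log2 levels were 7.03, 7.08 and 7.26 with vehicle and 8.02, 8.05 and 8.09 with talc, a change of 0.93 ± 0.12 (adjusted p = 0.00014), or 1.91-fold. With estradiol they were 6.94, 7.08 and 7.43 without talc and 7.91, 8.01 and 8.06 with it, a change of 0.84 ± 0.12 (adjusted p = 0.00047). The talc arrays were higher than every other array and closer together than those of estradiol alone. Of 23102 genes, Dusp5 ranked 79 by the size of its rise without estradiol and 117 with it.

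Dusp1 encodes MKP-1, a nuclear phosphatase that is the best known brake on p38 and JNK in activated macrophages. It stood at 9.35, 9.38 and 9.47 with vehicle and at 10.11, 10.31 and 10.36 with talc, a change of 0.86 ± 0.14 (adjusted p = 0.00064), or 1.82-fold. With estradiol it went from 9.38, 9.61 and 9.72 to 10.24, 10.26 and 10.38, a change of 0.72 ± 0.14 (adjusted p = 0.0035). The 6 talc arrays lay above all others. The next highest array was of TiO2 (9.89), where the group spread from 9.35 to 9.89 and did not separate from vehicle (0.23 ± 0.14, adjusted p = 0.70).

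Dusp4 encodes MKP-2, a nuclear phosphatase closely related to MKP-1. Its arrays were the tightest of the 10 genes within vehicle, at 9.92, 9.94 and 9.98, and rose to 10.48, 10.51 and 10.56 with talc. The change was 0.57 ± 0.09 (adjusted p = 0.00037), or 1.48-fold, and 0.53 ± 0.09 with estradiol (adjusted p = 0.00094), from 9.97, 10.00 and 10.00 to 10.47, 10.51 and 10.58. Dusp16 encodes MKP-7, which acts on JNK and p38. It went from 8.15, 8.36 and 8.40 to 8.68, 8.74 and 8.81 with talc, a change of 0.44 ± 0.10 (adjusted p = 0.012), and with estradiol from 8.23, 8.28 and 8.42 to 8.71, 8.75 and 8.86, a change of 0.46 ± 0.10 (adjusted p = 0.011). Talc and control arrays did not overlap for either gene, which is given without a share over all genes. The Dusp16 call in talc against vehicle was lost without vehicle replicate 1 (0.36, adjusted p = 0.066) or talc replicate 1 (0.41, adjusted p = 0.055), and that with estradiol without talc plus estradiol replicate 3 (0.42, adjusted p = 0.059). It was also lost with the brightest probe set (adjusted p = 0.051 and 0.083) and in a fit of only the arrays compared (adjusted p = 0.063 and 0.051).

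Dusp2, which encodes the nuclear phosphatase PAC-1 of immune cells, did not pass. It stood at 5.12, 5.17 and 5.26 with vehicle and at 5.35, 5.38 and 5.46 with talc, without overlap, and the difference of 0.21 ± 0.15 had an adjusted p of 0.49. With estradiol the difference was 0.27 ± 0.15 (adjusted p = 0.36), and single arrays of the TiO2 groups reached 5.60, as high as the talc plus estradiol arrays of 5.47, 5.58 and 5.66. Its 95% intervals, -0.10 to 0.53 and -0.05 to 0.58, hold rises as large as that of Dusp16.

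**Figure D3:**
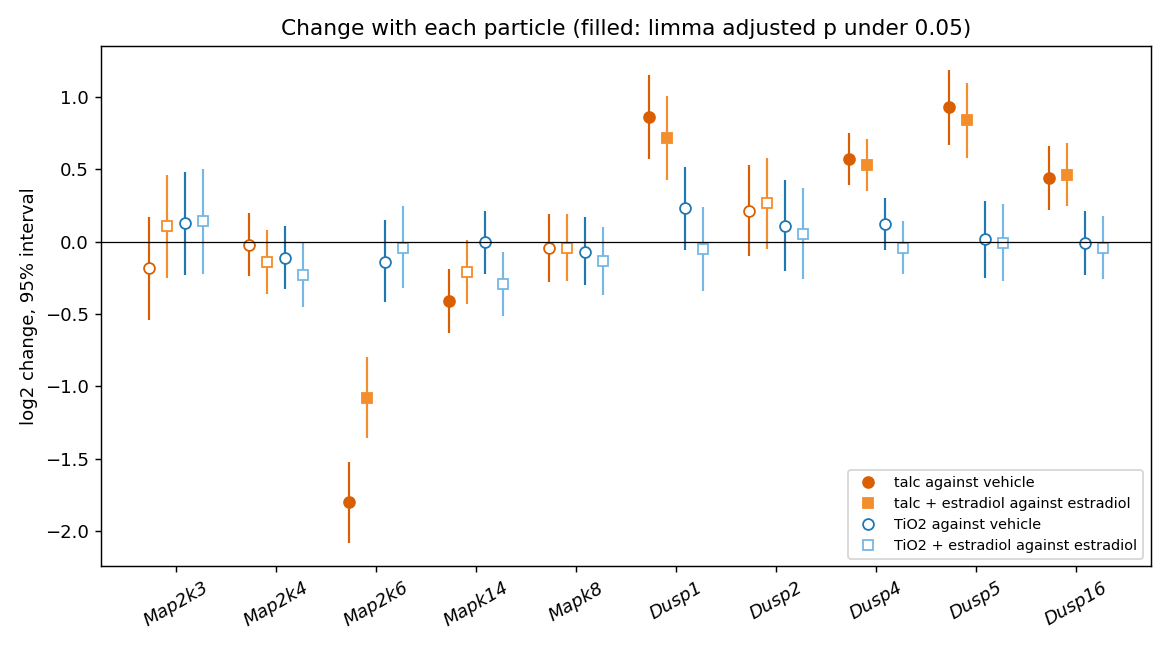
Log2 change of the 10 genes with talc (orange) and TiO2 (blue), without estradiol (circles, against vehicle) and with it (squares, against estradiol); bars are 95% intervals and filled symbols passed in limma. Dusp1, Dusp4, Dusp5 and Dusp16 are filled above 0 with talc, Map2k6 is filled below 0 at -1.80 and -1.08, and no TiO2 symbol is filled.

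Single probe sets of the 4 rising phosphatases mostly moved in the same direction, which again is not separate support for the gene calls. In talc against vehicle 1.8% of all probe sets passed, and with estradiol 0.972%. Without estradiol all 7 of Dusp1, all 7 of Dusp4 and all 6 of Dusp5 were higher, and 4 of each passed. Of the 12 of Dusp16, 10 were higher and 2 passed. With estradiol all probe sets of these 4 genes were higher, and 4 of Dusp1, 0 of Dusp4, 4 of Dusp5 and 0 of Dusp16 passed. Of the 6 probe sets of Dusp2, 4 were higher and 1 lower without estradiol. With it 5 were higher and 1 lower, and 0 passed in either comparison. For Mapk14, 14 of 16 were lower in talc against vehicle and 1 passed.

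The promoters of Dusp1, Dusp5 and Dusp16, which rose together, and of Map2k6, which fell furthest, are shown as RefSeq windows of build GRCm38.p6, each from 250 bases before to 50 bases after an annotated transcription start. Windows were matched for 9 of the 10 genes, 14 windows in all. Dusp4, which also rose with talc, had no window and was not searched. The windows were searched on both strands for 4 motifs. The first was an AP-1-like pattern, TGANTCA, where N is any base. The others were the cyclic AMP response element (CRE) TGACGTCA, its core TGACG, which the full element contains on each strand, and the TATA box TATAAA. Matches are in capitals. The Dusp1 window lies at chr17:26508423-26508722 (minus strand), that of Dusp5 at chr19:53528895-53529194 (plus strand), that of Dusp16 at chr6:134792579-134792878 (minus strand) and the first of 3 for Map2k6 at chr11:110398852-110399151 (plus strand).
Dusp1: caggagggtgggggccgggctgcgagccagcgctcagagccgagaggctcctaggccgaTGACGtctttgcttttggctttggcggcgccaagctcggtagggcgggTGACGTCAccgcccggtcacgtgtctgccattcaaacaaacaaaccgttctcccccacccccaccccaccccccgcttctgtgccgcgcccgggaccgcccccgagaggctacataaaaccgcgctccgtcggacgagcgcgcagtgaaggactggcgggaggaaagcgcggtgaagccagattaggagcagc
Dusp5: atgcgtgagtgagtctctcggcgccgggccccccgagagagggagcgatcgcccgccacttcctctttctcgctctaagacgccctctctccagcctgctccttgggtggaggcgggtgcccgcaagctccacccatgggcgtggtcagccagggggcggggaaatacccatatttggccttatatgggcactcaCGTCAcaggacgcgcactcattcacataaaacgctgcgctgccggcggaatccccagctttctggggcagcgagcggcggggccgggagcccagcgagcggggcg
Dusp16: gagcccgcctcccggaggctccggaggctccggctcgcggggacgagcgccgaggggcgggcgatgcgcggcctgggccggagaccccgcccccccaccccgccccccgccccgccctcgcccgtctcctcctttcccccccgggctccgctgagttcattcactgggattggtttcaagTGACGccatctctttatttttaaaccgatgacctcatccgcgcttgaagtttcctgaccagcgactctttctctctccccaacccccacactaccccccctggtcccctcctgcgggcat
Map2k6: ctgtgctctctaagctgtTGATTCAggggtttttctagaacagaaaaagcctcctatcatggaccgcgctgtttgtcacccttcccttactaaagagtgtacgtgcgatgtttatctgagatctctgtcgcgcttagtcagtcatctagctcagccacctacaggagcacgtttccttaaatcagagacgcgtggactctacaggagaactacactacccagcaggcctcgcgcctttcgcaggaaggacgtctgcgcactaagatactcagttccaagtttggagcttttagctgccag

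The Dusp1 window held the full CRE, beginning 143 bases before the start, and a further core 191 bases before it. Among 32851 windows of this length 1.79% held the full element, and Dusp1 was the 1 gene of the 9 with it. The core was found for 6 of the 9 genes, against 20.8% of all windows: in Dusp5 it began 55 bases and in Dusp16 70 bases before the start, and it was also present for Dusp2, Map2k4 and Mapk8, which did not pass. The Map2k6 window held a match to the AP-1-like pattern, as TGATTCA, 232 bases before the start. It was the 1 match to that pattern among the 9 genes, and 7.81% of all windows had one. The pattern takes any central base, so a match need not be an AP-1 site. A TATA box match was found for 1 gene, 206 bases before the start in another window of Map2k6, against 13.6% of all windows. Genes with several windows had more chances of a match. A match describes these letters and is not a measured binding site.

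The particles were then compared with each other at the same mass per well. Without estradiol, 6 of the 10 genes passed in talc against TiO2, where 9.96% of all genes passed, 4.61% higher and 5.35% lower. Dusp5 (0.91 ± 0.12), Dusp1 (0.63 ± 0.14), Dusp4 (0.45 ± 0.09) and Dusp16 (0.45 ± 0.10) were higher with talc. Map2k6 (-1.66 ± 0.13, adjusted p = 2.2e-06) and Mapk14 (-0.40 ± 0.10, adjusted p = 0.018) were lower. These comparisons share the talc arrays with those above. In a fit of only the 6 arrays compared, Map2k6 and Dusp5 were the 2 genes that passed, and the Mapk14 call was lost without TiO2 replicate 1 (adjusted p = 0.072) or talc replicate 2 (adjusted p = 0.089). The brightest Map2k6 probe set gave -0.83.

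With estradiol in both groups, 5 of the 10 passed, where 9.53% of all genes passed, 6.66% higher and 2.87% lower. Dusp5 (0.85 ± 0.12), Dusp1 (0.78 ± 0.14), Dusp4 (0.57 ± 0.09) and Dusp16 (0.50 ± 0.10) were higher with talc, and Map2k6 was lower (-1.05 ± 0.13, adjusted p = 0.00019). The brightest probe set gave -1.58 for Map2k6 and 0.29 for Dusp16 (adjusted p = 0.22), which then did not pass.

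TiO2 left every one of the 10 genes short of the threshold. Against vehicle 0 passed in limma, as did 0% of all genes, and 0 of the 10 had an unadjusted p under 0.05, beside 8.16% of all genes. The 95% intervals lay between -0.42 (Map2k6) and 0.52 (Dusp1), and the upper bounds for Dusp1 (0.52), Dusp4 (0.30), Dusp5 (0.28) and Dusp16 (0.21) were all below the changes estimated for talc. Dusp1 (0.23 ± 0.14) and Dusp4 (0.12 ± 0.09) had the smallest p-values (adjusted p = 0.70 and 0.76). With estradiol 0 of the 10 passed, beside 0.00433% of all genes, and 2 had an unadjusted p under 0.05, Mapk14 and Map2k4 (-0.23 ± 0.10, adjusted p = 0.55).

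Estradiol was the other variable of the design. Against vehicle 0 of the 10 genes and 0% of all genes passed in limma; 1 of the 10, Map2k6, and 4.87% of all genes had an unadjusted p under 0.05. Added to talc, 0 of the 10 and 0% of all genes passed, with unadjusted p under 0.05 for 1 of the 10, again Map2k6, and for 6.58% of all genes. The 4 phosphatases that rose with talc differed between talc plus estradiol and talc by -0.06 (Dusp5) to 0.03 (Dusp1 and Dusp16), with 95% intervals between -0.32 and 0.32. Added to TiO2, 0 of the 10 passed, beside 0.00866% of all genes, and 2 had an unadjusted p under 0.05: Mapk14 (-0.31 ± 0.10, adjusted p = 0.24) and Map2k6 (-0.33 ± 0.13, adjusted p = 0.32). Neither interaction with estradiol passed for any of the 10, or for any of all genes (0%); unadjusted p lay under 0.05 for 1 of the 10 (Map2k6) and 6.32% of all genes with talc, and for 0 of the 10 and 8.05% with TiO2.

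Across the 18 arrays the 4 rising phosphatases tracked each other, with Pearson correlations between 0.78 (Dusp1 with Dusp16) and 0.95 (Dusp1 with Dusp4), and ran against Map2k6, between -0.91 and -0.86. The arrays share their treatment groups, so these values restate the talc effect and are given as a description. By the same measure the genes most like Dusp5, of 10757 named genes above the median level, were Plk2 (0.971), Stmn4 (0.969), Gadd45b (0.964) and Bag3 (0.964). Those most like Map2k6 were Racgap1 (0.972), Naaa (0.971), Cenpn (0.970) and Ncapd2 (0.969).

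Further genes of these pathways, 61 in 6 lists with 60 measured, were read in the same fit. In talc against vehicle 3 rose and 5 fell, with a median log2 change of -0.01 beside 0.02 for all genes; with estradiol 4 rose and 4 fell, with a median of 0.06 beside 0. The shares of all genes that rose and fell were 3.94% and 4.52% without estradiol and 4.13% and 3% with it, and counts of 1 or 2 in a short list are too small to be set apart from these shares. Other phosphatases moved apart. Dusp6, which encodes a cytoplasmic phosphatase of ERK, fell from 9.20 ± 0.07 to 8.58 ± 0.06 (SD, n = 3), by -0.63 ± 0.09 (adjusted p = 0.00017), and by -0.60 ± 0.09 with estradiol (adjusted p = 0.00037). Its close relative Dusp7 fell by -0.48 ± 0.10 and -0.59 ± 0.10 (adjusted p = 0.0062 and 0.0019). Both calls held under all 13 alternatives in each comparison. Dusp8, a phosphatase of JNK and p38, rose by 0.45 ± 0.11 and 0.44 ± 0.11, and Dusp9 by 0.51 ± 0.14 and 0.58 ± 0.14 (adjusted p from 0.014 to 0.026); each of these 4 calls was lost under 6 of 13 alternatives, and the brightest probe set of Dusp9 gave 0.10 (adjusted p = 0.88) without estradiol and 0.68 (adjusted p = 0.10) with it. In all, 2 of the 12 other phosphatases rose and 2 fell in each comparison, where 8.46% of all genes passed without estradiol and 7.13% with it.

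**Figure D4:**
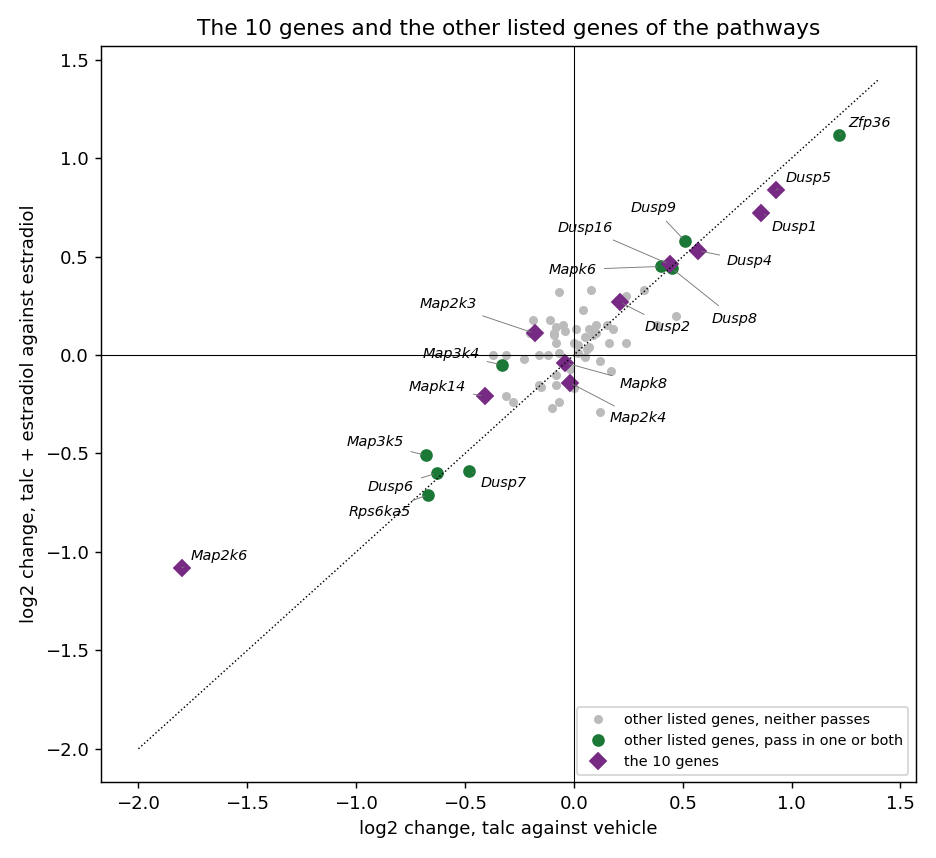
Log2 change with talc without estradiol (horizontal) against that with estradiol (vertical), which share no arrays, for the 10 genes (diamonds) and 60 other listed genes of the pathways (circles, green where they passed in either comparison); the dotted line marks equal change. Dusp6 and Dusp7 lie at the lower left and the rising phosphatases at the upper right, and Map2k6 lies furthest from 0.

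Above the MAP2 kinases, 2 of 17 MAP3 kinases and adaptors fell in talc against vehicle and 0 rose, beside 4.52% and 3.94% of all genes. Map3k5, which encodes ASK1, an upstream kinase of both p38 and JNK, went from 7.22 ± 0.08 to 6.54 ± 0.07 (SD, n = 3), by -0.68 ± 0.10 (adjusted p = 0.00023), and by -0.51 ± 0.10 with estradiol (adjusted p = 0.0032); the brightest probe set gave -0.44 and -0.54 without passing. Map3k4 fell by -0.33 ± 0.09 without estradiol (adjusted p = 0.037) but had -0.05 ± 0.09 with it, and its brightest probe set gave 0.01. Of 4 other MAP2 kinases and 6 scaffold genes 0 passed in either comparison. Of 8 other MAP kinases 1 passed, Mapk6, which encodes an atypical kinase and rose by 0.45 ± 0.12 with estradiol (adjusted p = 0.035, lost under 8 of 13 alternatives); without estradiol the difference was 0.40 ± 0.12 (adjusted p = 0.054).

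Among 13 kinases and factors downstream, 1 rose and 1 fell in each comparison, beside 8.46% of all genes passing without estradiol and 7.13% with it. Rps6ka5, which encodes MSK1, a nuclear kinase activated by p38 and ERK, fell from 7.46 ± 0.10 to 6.79 ± 0.09 (SD, n = 3), by -0.67 ± 0.10 (adjusted p = 0.00040), and by -0.71 ± 0.10 with estradiol (adjusted p = 0.00036, or 0.056 with the brightest probe set). Zfp36, which encodes the mRNA decay factor tristetraprolin, a target of the p38 pathway, rose by 1.22 ± 0.20 and 1.12 ± 0.20 (adjusted p = 0.00083 and 0.0023). Its vehicle arrays were widely spread, from 6.78 to 7.80, below all talc arrays (8.31 to 8.49).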

How the data were processed

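Total RNA of 18 samples, 6 groups of 3, was measured on mouse gene arrays. The authors deposited linear intensities, and RMA is named in the submitters' processing notes, with no version; the level of summary and the return from the log2 scale are not given in the sources used here. Log2 was taken here without a pseudocount. Of 269751 probe sets, 233753 carry 1 gene symbol, 5106 several and 30892 none in the platform annotation; 2247 symbols were updated through RefSeq, and no probe set with several symbols was used. A gene's value is the mean log2 of its probe sets (6 to 16 for the 10 genes), dim ones included. How this affects differences of low genes near background was not tested.

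All 18 arrays and 23102 genes entered 1 limma 3.58.1 model (R 4.3.3) with 6 group means, with 12 residual degrees of freedom. It gave 11 comparisons, with Benjamini-Hochberg adjustment over all genes and a threshold of 0.05; single probe sets were fitted likewise. The script was tested on simulated data. The number of arrays limits the precision. The array numbers in the labels run through the groups, so array order and group cannot be told apart.

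The 10 genes and all lists were chosen with earlier results of these data known. All 10 are named; of each pathway list up to 4 genes that passed with talc are named, and for likeness the 4 genes closest by Pearson correlation to the most raised and the most lowered of the 10, predicted and small RNA genes left out. Alternatives were a filter at the median level, the brightest probe set per gene, quantile normalization, subtraction of array medians, trend and robust variance, array weights, only the arrays compared, and each array left out in turn. Promoter sequences are from RefSeq.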

Additional observations from a re-analysis of the deposited data

How the results depend on the processing

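The number of the 10 genes that passed was recomputed under every alternative in each of the 11 comparisons. Of 155 such counts, 154 lay within 1.5 times the reported one. The exception was talc against TiO2 in a fit of only the arrays compared, with 2 genes in place of 6. Fewer arrays then estimate the spread. The share of 154 says little about stability, because 7 of the 11 comparisons had a count of 0 in every fit. A count of 4 in place of 6 also lies within that limit. Alternatives other than leaving out an array gave 4 to 6 for talc against vehicle and 2 to 6 for talc against TiO2. In both comparisons of talc plus estradiol with estradiol or TiO2 plus estradiol they gave 4 to 5. With each array left out in turn, the counts ran from 5 to 6 for talc against vehicle, from 4 to 5 for talc plus estradiol against estradiol, from 5 to 6 for talc against TiO2, stayed at 5 for talc plus estradiol against TiO2 plus estradiol, and were 0 in the other 7. Of 22 calls for single genes, those of Map2k6, Dusp1, Dusp4 and Dusp5 held under all 13 alternatives in both comparisons of talc with control. Among 1550 recomputed gene values only those of the 22 calls, each recomputed under 13 alternatives, had a call to lose. Of these, 18 lost it, most of them for Mapk14 and Dusp16. In talc against vehicle each of these 2 genes lost its call under 4 of 13 alternatives. None of the calls for the 10 genes changed sign; 143 values that passed neither way did. Among the other pathway genes, 40 of 234 recomputed values lost a call and 5 gained one; Map3k4 in talc against vehicle went from -0.33 to 0.01 with the brightest probe set, and the cause was not tested. This family of alternatives for the other pathway genes was chosen after seeing the data. Quantile normalization and subtraction of array medians moved the median change of all genes by under 0.1 log2 units in every comparison. No paired analysis was possible because array numbers in the labels run on from group to group and give no replicate number that groups share.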
